A study of Mus musculus with 12 samples.

Results

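The RNA of 3B3-3l and J1 mouse embryonic stem cells (mESCs) was compared in serum medium. The comparison took the 6 serum libraries of the series, 3 of each line, out of 12 libraries in all, as named by the sample labels. J1 is a male wild-type line. 3B3-3l, which the study's text calls 3B3L, descends from mESCs with both Dnmt3a and Dnmt3b disrupted, and carries a Dnmt3b transgene and a Flag-tagged Dnmt3l transgene, both under the CAG promoter, the latter selected with blasticidin. Both lines grew in 15% fetal calf serum with LIF, at 500 U/ml by the labels (the study's methods state another dose). J1 cells grew on inactivated feeder cells that were depleted by plating before analysis, and 3B3-3l cells grew on gelatin, so that in serum the line, the transgenes and the culture surface cannot be told apart. The other 6 libraries, 3 of each line in 2i medium (1 uM of the MEK inhibitor PD0325901 and 3 uM of the GSK3 inhibitor CHIR99021, with 1000 U/ml LIF and no serum), are used to set a serum difference beside the difference of the same lines in the other medium. The study's methods place J1 on feeders in serum culture, with the feeders removed for the conversion to 2i. Between the media the inhibitors, the serum, the LIF dose and, for J1, the feeder layer cannot be told apart.

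DNMT3A and DNMT3B place new methyl groups on cytosines of CG dinucleotides, DNMT3L has no catalytic activity of its own and assists them, and DNMT1 with UHRF1 copies existing methylation after replication. Methylation of promoters holds many germline genes silent in mESCs, and methylation of 1 parental copy marks imprinted loci. mESCs in serum express the pluripotency network together with low levels of lineage genes, and a feeder layer is a source of fibroblast RNA where its removal is incomplete.

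Serum libraries held 37050133 to 41791766 counts. Of 39017 genes, 17885 passed the filter on low counts and were tested in one edgeR quasi-likelihood fit of all 12 libraries. Values are CPM, counts scaled to a library of fixed size, and each difference is a log2 fold change of 3B3-3l over J1, with its standard error (SE). A gene was called at an edgeR adjusted p under 0.05. By that rule 6916 genes (38.7%) differed between the lines in serum, 3845 higher (21.5%) and 3071 lower (17.2%) in 3B3-3l, and 820 of them (4.58%) differed by at least 2-fold. The split of the calls moved with the processing: 3606 were higher and 3526 lower where the 6 serum libraries were fitted alone, and 3298 higher and 3567 lower with scaling from the genes off chromosomes 8 and 11 and a run of lower genes on chromosome 7, an alternative chosen after seeing the data. The median over all genes tested was 0.03. In 6749 genes (37.7%) the difference was called and the 3 libraries of a line did not overlap those of the other, and 9100 genes (50.9%) did not overlap whether called or not. With 3 libraries a group and a biological coefficient of variation of 6.49%, small differences passed the test.

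The targeted genes were read first. Dnmt3a (ENSMUSG00000020661, chr12:3801559-3914443, GRCm38) stood at 167, 166 and 166 CPM in the J1 libraries and at 34.3, 32.6 and 29.4 CPM in 3B3-3l. The line difference of Dnmt3a was -2.37 ± 0.072 (SE, edgeR adjusted p = 2.26e-11), and reads of the disrupted gene thus remained in every 3B3-3l library. Dnmt3b (ENSMUSG00000027478, chr2:153649411-153687730) stood at 427, 408 and 404 CPM in J1 and at 927, 880 and 866 CPM in 3B3-3l, a difference of 1.11 ± 0.052 (edgeR adjusted p = 1.03e-09). Endogenous and transgene reads of Dnmt3b and Dnmt3l were counted together. Dnmt3l was at 285, 285 and 285 CPM in J1 and 511, 496 and 448 CPM in 3B3-3l (0.77 ± 0.059, edgeR adjusted p = 1.2e-07). For all of these genes the lines did not overlap. The maintenance enzyme showed no such gap: Dnmt1 was at 376, 337 and 381 CPM in J1 and 374, 366 and 365 CPM in 3B3-3l (0.02 ± 0.049, edgeR adjusted p = 0.831), and its partner Uhrf1 was higher by 0.20 ± 0.046 (edgeR adjusted p = 0.00259). Of the 24 genes of the DNA methylation machinery, 8 were higher and 4 lower, with a median of 0.06. Over the alternatives 4 to 9 were higher and 3 to 5 lower, with 5 in each direction under the other scaling. They include the imprint-protecting zinc finger gene Zfp57 (0.24 ± 0.053) and the repressor of Dnmt3 genes Prdm14 (-0.47 ± 0.061).

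**Figure D1:**
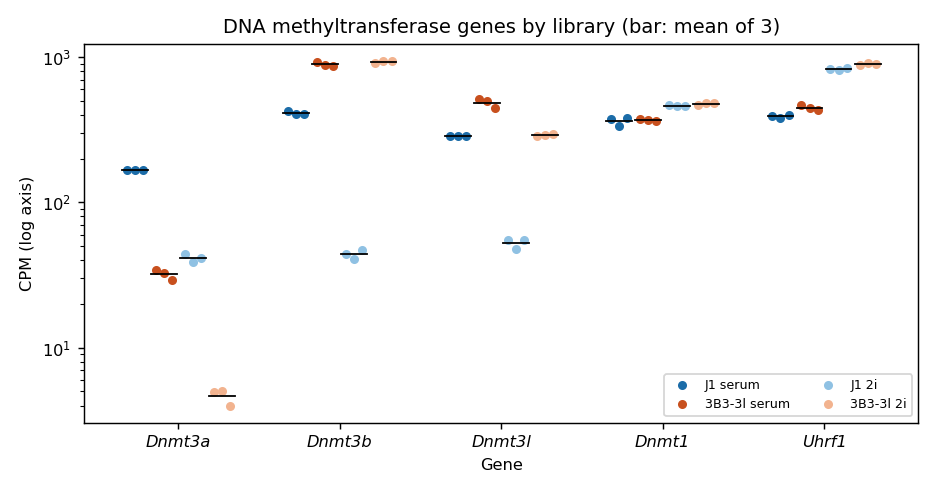
CPM (log axis) of 5 DNA methylation genes in each library, 3 points a group, with a bar at the group mean. In serum Dnmt3a falls from 166 CPM in J1 to 32.1 CPM in 3B3-3l and Dnmt3b rises from 413 to 891 CPM, while the Dnmt1 points of the lines overlap.

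Next, 15 genes at the top and 15 at the bottom of the fold changes were taken from called genes that reached a mean of 10 CPM in one serum group and did not overlap between the lines. They were chosen by these very values, so the folds and p-values in this paragraph and the next describe the choice. On the high side, Gm364 (ENSMUSG00000079584, chrX:57400767-57488773) led, at 0.740, 0.964 and 0.623 CPM in J1 and 13.5, 15.2 and 17.6 CPM in 3B3-3l (4.30 ± 0.15). The next were Gm5946, Gm14136, Gm17167, Taf9b, Tcte2 and Gm12139, from 2.55 ± 0.10 down to 2.07 ± 0.11. The 3 of these Gm genes other than Gm5946 have no position in the RefSeq table, Gm5946 is annotated as a pseudogene, and counts of such genes are uncertain where copies share reads. The transcription factor subunit gene Taf9b stood at 3.46, 3.40 and 3.96 CPM in J1 and 15.0, 17.3 and 18.1 CPM in 3B3-3l. Tcte2, a gene of the mouse t-complex region, stood at 14.5, 16.0 and 14.4 CPM against 63.2, 60.3 and 67.9 CPM. The maternally expressed imprinted RNA Meg3 (ENSMUSG00000021268, chr12:109540996-109571729) was at 140, 140 and 126 CPM in J1 and 543, 513 and 481 CPM in 3B3-3l (1.92 ± 0.069). The others were Enpp2, which encodes the lysophospholipase autotaxin (1.94 ± 0.11), Prr19 (1.87 ± 0.087), the stress gene Gadd45g (1.86 ± 0.12), Foxi3 (1.81 ± 0.12), the carbonic anhydrase gene Car4 (1.75 ± 0.080) and the Notch ligand gene Dll1, at 10.9, 7.96 and 11 CPM against 34.4, 34.8 and 31.1 CPM. Of the 14 genes given, 3 lie on the X chromosome (Gm364, Gm5946 and Taf9b).

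On the low side Dnmt3a led, followed by Nxf3, an X-linked member of a family of RNA export factors, at 11.2, 11.1 and 11.2 CPM in J1 and 2.01, 1.84 and 2.70 CPM in 3B3-3l (-2.35 ± 0.12). The keratin gene Krt17 was at 31.7, 31.1 and 31.3 CPM against 10.8, 8.34 and 8.27 CPM, and the gene for the Wnt-inactivating enzyme Notum at 32.7, 32.7 and 29.8 CPM against 11, 9.56 and 9.19 CPM. Of the 14 genes given, 6 lie on chromosome 11: Krt17, Notum, the aromatic amino acid decarboxylase gene Ddc (-1.36 ± 0.068), the repressor gene Bcl6b (-1.33 ± 0.073), Prkar1a and Krt42 (-1.22 ± 0.11). Another 3 lie on chromosome 8, Ntpcr (-1.29 ± 0.077), the quinone reductase gene Nqo1 (-1.29 ± 0.086) and the immunoproteasome gene Psmb10 (-1.28 ± 0.10), and 2 on chromosome 7, Fgfr2, which encodes a receptor for fibroblast growth factors, and Spn, a sialoglycoprotein gene (-1.35 ± 0.076). Prkar1a (ENSMUSG00000020612, chr11:109649023-109669663), the regulatory subunit of protein kinase A, was at 156, 159 and 164 CPM in J1 and 72.0, 68.9 and 64.2 CPM in 3B3-3l (-1.22 ± 0.058). The remaining gene, SCARNA16, was at 17.8, 21.9 and 19.8 CPM against 10, 5.71 and 4.48 CPM (-1.56 ± 0.25).

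The same genes were set beside their line difference in 2i, where 8208 genes (45.9%) were called between the lines and where the line difference differed from that in serum for 6200 genes (34.7%). Gm364 was at 15.8 ± 1.07 CPM (SD, n = 3) in J1 2i and 7.14 ± 0.606 CPM in 3B3-3l 2i, so that of the 4 groups J1 serum stood apart as the low one. The pattern was alike for Gm5946, Gm14136, Gm17167 and Tcte2, whose difference in 2i was between -0.18 and 0.15 and was not called. Tcte2 was at 78.8 ± 5.54 CPM in J1 2i and 87.3 ± 1.27 CPM in 3B3-3l 2i. Others were nearly silent in 2i in both lines: Enpp2, Car4 and Dll1 did not exceed a mean of 0.26 CPM there. Of the 14 low genes given, 12 were called lower in 2i as well. The differences in 2i were -2.40 for Nxf3, -2.37 for Krt17, -1.25 for Prkar1a, -1.24 for Ddc, -1.23 for Psmb10, -1.06 for Krt42 and -1.02 for Nqo1. Notum, in contrast, differed by -0.23 in 2i, and its difference between media was called (edgeR adjusted p = 3.02e-07). Over all 335 genes at least 2-fold lower in serum, 172 (51.3%) were called lower in 2i as well and 26 (7.76%) higher. Of the 485 genes at least 2-fold higher in serum, 127 (26.2%) were called higher in 2i and 60 (12.4%) lower. Of all genes tested 23% were called higher and 22.9% lower in 2i.

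**Figure D2:**
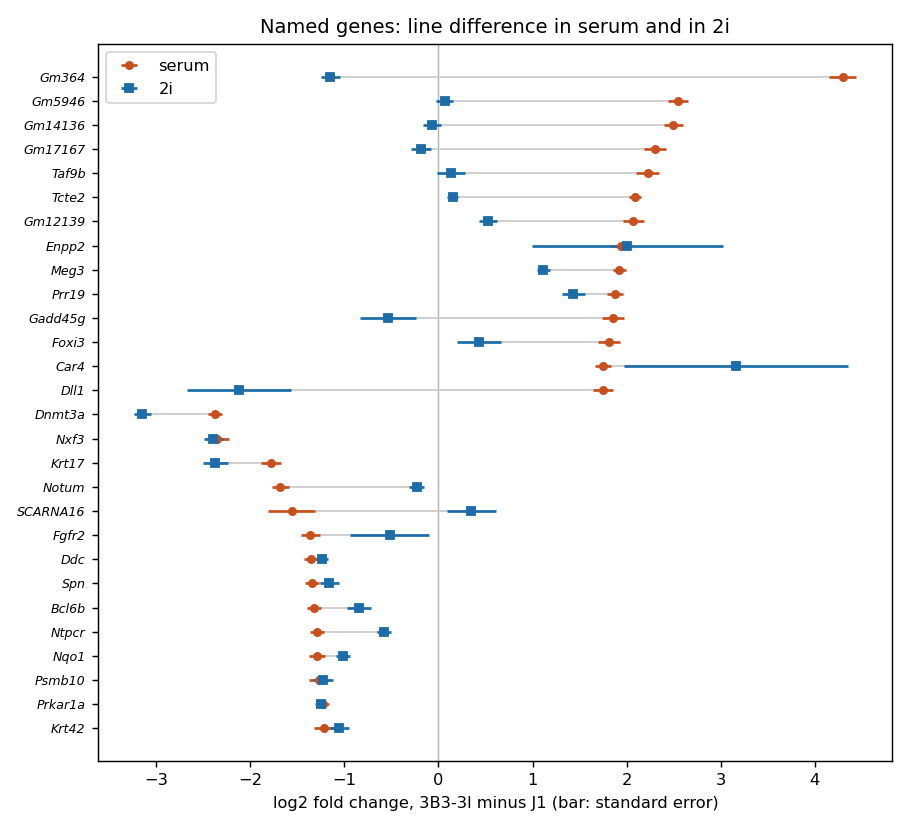
Line difference (log2 fold change of 3B3-3l over J1, bars give the SE) of the 28 named genes in serum (circles) and in 2i (squares), joined by a line for each gene. Gm364 is at 4.30 in serum and -1.15 in 2i, whereas Nxf3 (-2.35 and -2.40) and Prkar1a (-1.22 and -1.25) sit at the same place in both media.

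The lower genes were not spread evenly over the genome. The line difference was therefore summarised by chromosome over the 13407 tested genes that had a RefSeq position and at least 1 CPM in a serum group. The median of chromosome 11 was -0.29, with 649 of 1155 genes lower (56.2%) and 140 higher. That of chromosome 8 was -0.12, with 310 of 736 lower (42.1%) and 129 higher. The other autosomes had medians from 0.01 to 0.08, and the X chromosome 0.12, with 186 of its 503 genes higher (37%). Chromosomes 8 and 11 together held 14.1% of the genes and 34.8% of all lower calls. On the other chromosomes 3116 genes were higher (27.1%) and 1796 lower (15.6%).

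For chromosome 11 the median deviation of its genes from the mean of the 6 serum libraries was 0.153, 0.112 and 0.158 in J1 and -0.115, -0.133 and -0.160 in 3B3-3l. For chromosome 8 it was 0.068, 0.058 and 0.073 in J1 and -0.044, -0.063 and -0.105 in 3B3-3l. By an exact two-sided permutation test of the 6 values 18 of 21 chromosomes had p = 0.1, the smallest that 3 against 3 libraries allow, so that this separation of the lines does not set chromosomes 8 and 11 apart from the others. Genes on a chromosome are not independent replicates. In 2i chromosome 11 had nearly the same median, -0.27, with 638 of its genes lower. Chromosome 8 had a median of 0.04 in 2i. Chromosome 6 behaved in the opposite way, with 0.01 in serum and -0.42 in 2i. There the J1 2i libraries stood apart, at 0.345, 0.301 and 0.350 above the mean of the 12 libraries, while the other 9 libraries lay between -0.124 and -0.052.

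**Figure D3:**
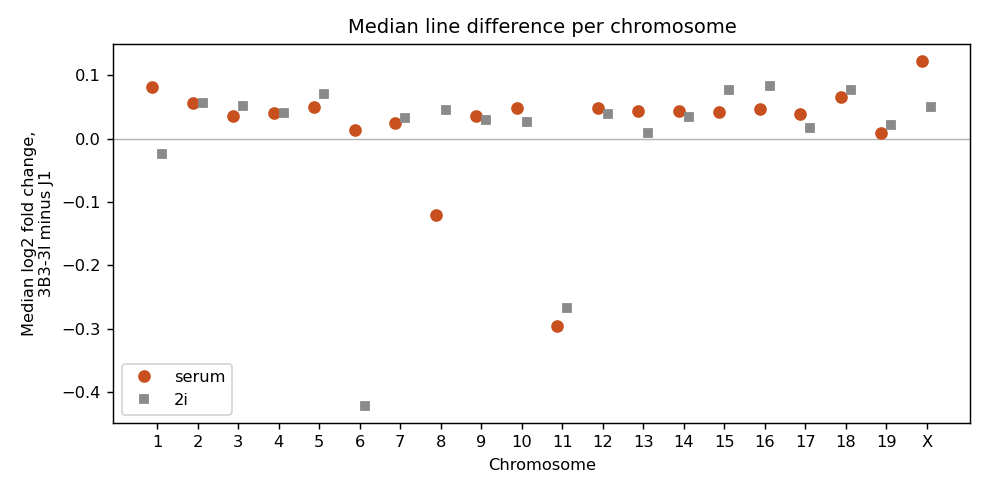
Median line difference (log2 fold change of 3B3-3l over J1) of the genes of each chromosome in serum (circles) and in 2i (squares), without the Y chromosome, which had 7 genes. Chromosome 11 lies at -0.29 in serum and -0.27 in 2i, chromosome 8 at -0.12 and 0.04, and chromosome 6 at 0.01 and -0.42.

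Running medians over 25 neighbouring genes placed these differences within the chromosomes. A run was taken where at least 20 genes in a row had a running median beyond 0.3 in either direction, so the medians within runs restate the rule. There were 14 runs, 9 on chromosome 11, 2 on chromosome 8 and 1 each on chromosomes 7, 14 and 17. On chromosome 11 the 9 runs held 623 genes, of which 473 were lower and 23 higher, with medians from -0.47 to -0.32. They left out the middle of the chromosome. The 329 genes that start between 72438567 and 100368855 had a median of 0.06 in serum and 0.2 in 2i. Of them 105 were higher (31.9%) and 55 lower (16.7%) in serum, close to the shares of the other chromosomes. The stretches on either side, chr11:4736892-72438566 and chr11:100368856-121717389, had 343 of 471 (72.8%) and 230 of 318 genes (72.3%) lower.

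On chromosome 8 the difference lay at the ends. The distal run held 275 genes, 227 of them lower (82.5%) and 3 higher, with a median of -0.53 in serum and -0.22 in 2i. Its genes include Ctcf, which encodes the architectural zinc finger protein CTCF, at 191, 192 and 186 CPM in J1 and 136, 145 and 140 CPM in 3B3-3l (-0.43 ± 0.041). They also include the cell cycle regulator gene E2f4 (-0.53 ± 0.071), the DNA repair gene Fanca (-0.49 ± 0.051) and Mvd, an enzyme of sterol synthesis (-0.71 ± 0.077). The medians of the run were 0.272, 0.232 and 0.279 in the J1 libraries and -0.226, -0.264 and -0.300 in 3B3-3l. A short run at the other end, chr8:3457105-8690550, had 21 of 26 genes lower. The 427 genes between these runs had a median of 0.05 in serum and 0.22 in 2i. In serum 122 of them were higher (28.6%) and 61 lower (14.3%).

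The steepest run lay on chromosome 7, at chr7:129591694-137412242, from Wdr11 to 9430038I01Rik. Of its 30 genes, 26 were lower in serum, with a median of -0.92, and 24 were lower in 2i, with a median of -0.85. The medians of the run were 0.436, 0.405 and 0.476 in the J1 libraries and -0.450, -0.461 and -0.424 in 3B3-3l. Many of its members sat near 1 log2 unit lower whatever their level. Bub3, a gene of the spindle checkpoint, was at 173, 170 and 167 CPM in J1 and 76.8, 76.7 and 70.7 CPM in 3B3-3l (-1.19 ± 0.057). The corepressor gene Ctbp2 was at 300, 292 and 287 CPM against 139, 134 and 134 CPM (-1.11 ± 0.042). The arginyltransferase gene Ate1 was at 45.3, 47.2 and 47.6 CPM against 22.2, 22.9 and 23.8 CPM (-1.02 ± 0.056). The same held for the centrosomal gene Tacc2 (-1.01 ± 0.056), the ornithine aminotransferase gene Oat (-0.93 ± 0.055), the zinc finger gene Ikzf5 (-1.18 ± 0.063), the phosphatase gene Lhpp (-1.20 ± 0.11) and Dock1, which encodes an activator of Rac (-1.08 ± 0.076). Fgfr2, among the 15 lowest genes above, is the second gene of the run, at 22.5, 20.4 and 21.9 CPM against 8.61, 8.22 and 8.39 CPM. Exceptions were Wdr11 at its edge (-0.01 ± 0.047), Chst15 inside it (0.18 ± 0.11, and -1.05 in 2i) and the proliferation marker gene Mki67, which was higher (0.39 ± 0.078, edgeR adjusted p = 0.00109). These are measurements of RNA, and no DNA measurement of the lines was analysed here.

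**Figure D4:**
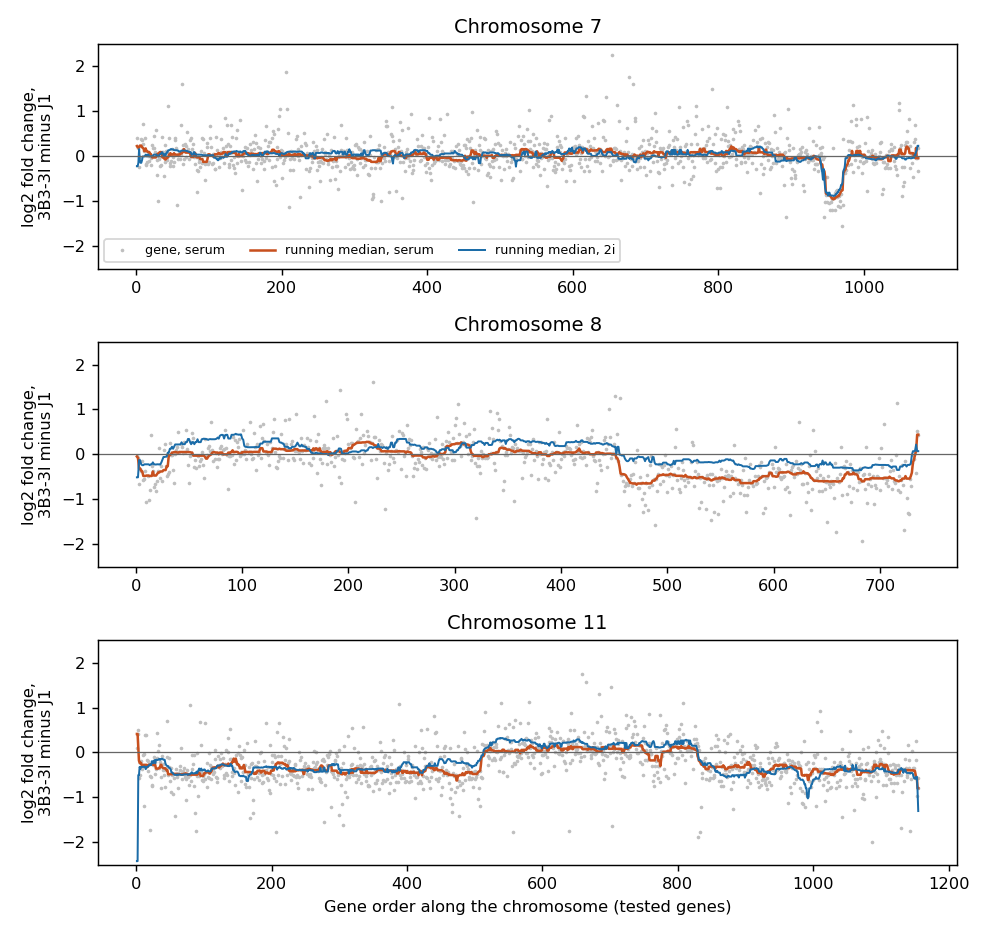
Line difference in serum of each tested gene (grey points) along chromosomes 7, 8 and 11 in gene order, with running medians over 25 genes in serum (orange) and 2i (blue). Chromosome 7 shows 1 narrow trough of 30 genes in both media, and chromosome 8 a step at its distal end that is deeper in serum (-0.53) than in 2i (-0.22). Chromosome 11 shows a low level on both sides of a middle stretch, whose median is near 0 in serum and 0.2 in 2i. Genes outside the drawn range are left out of the picture.

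The 2 runs of higher genes were of another kind. That at chr14:3049285-8173303 had 14 of 23 genes higher, a median of 0.83 in serum and 0.06 in 2i, and consisted mostly of predicted genes of 1 family, among which reads may be divided. That at chr17:21383707-23193284 had 7 of 20 genes higher, 0.39 in serum and -0.09 in 2i, and consisted mostly of zinc finger genes. The medians of the chromosome 17 run were -0.170, -0.159 and -0.221 in the J1 libraries and 0.013, 0.090 and 0.416 in 3B3-3l, so that its size rested largely on 3B3-3l replicate 3. On the Y chromosome 6 of 7 genes were higher in 3B3-3l, with a median of 0.80 in serum and 0.48 in 2i. Where 10 counts were required in every library 3 were higher, with a median of 0.49. The RNA helicase gene Ddx3y was at 45.2, 46.5 and 43.1 CPM in J1 and 69.2, 70.7 and 77.1 CPM in 3B3-3l (0.69 ± 0.066), Uty at 18.4, 16.6 and 15.6 CPM against 25.2, 29.5 and 33.5 CPM, and Kdm5d at 1.5, 1.76 and 1.92 CPM against 5.30, 5.64 and 6.21 CPM. Ube1y1 differed by 0.07 ± 0.064 and was not called.

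Gene lists were then read against this background. Over all genes tested, 21.5% were higher and 17.2% lower, the shares beside which each list count is to be read. Of 559 distinct list genes tested, 198 were higher and 99 lower, and 33 of those 99 lay on chromosomes 8 and 11 or in the chromosome 7 run, which held 69 of the list genes. Naive pluripotency genes leaned lower: 11 of 19 were lower and 5 higher, with a median of -0.19. The homeobox gene Gbx2 was at 22.1, 23.0 and 21.2 CPM in J1 and 12.4, 12.4 and 10.6 CPM in 3B3-3l (-0.91 ± 0.070). Dppa2 (-0.51 ± 0.052), the nuclear receptor gene Nr5a2 (-0.47 ± 0.057), Klf2 (-0.42 ± 0.066), Dppa4 (-0.32 ± 0.050), Klf4 (-0.29 ± 0.044) and Esrrb (-0.26 ± 0.052) were lower too. Of the 11, 3 lay on chromosomes 8 and 11, among them Klf2 and Sox15. Sox15 begins a run of lower genes on chromosome 11. This count is by chromosome and does not place the others in a run, and chromosome 8 between its runs was not lower. Members that were higher were Tcl1 (0.40 ± 0.052), the growth factor gene Fgf4 (0.39 ± 0.043), Tbx3 (0.37 ± 0.057) and Nanog (0.18 ± 0.044). In 2i the list went the other way, with 9 higher and 4 lower and a median of 0.12. The test of the media difference called the line difference lower in serum than in 2i for 11 members and higher for 4. Over all genes tested those shares were 16.3% lower and 18.3% higher. None of the members reached 2-fold in serum.

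The defining markers of mESCs were high in both lines. Pou5f1 was at 1336, 1327 and 1321 CPM in J1 and 1365, 1199 and 1109 CPM in 3B3-3l, with a difference of -0.12 ± 0.078 outside the call (edgeR adjusted p = 0.258). Without 3B3-3l replicate 1 it was called (-0.20). Sox2 differed by -0.14 ± 0.056 (edgeR adjusted p = 0.0705), which was called under 6 alternatives, at -0.18 to -0.14. Of 10 general pluripotency genes 2 were lower and 1 higher. Formative and primed genes split, with 5 of 16 higher and 3 lower. These counts include the engineered genes, Dnmt3b among the higher and Dnmt3a among the lower. Fgf5, the classical marker of the primed epiblast, was at 1.79, 1.66 and 1.19 CPM in J1 and 4.70, 5.69 and 5.23 CPM in 3B3-3l (1.74 ± 0.18), and Sall2 and Pou3f1 were higher by 1.07 ± 0.066 and 0.54 ± 0.091. In the same list Foxd3 (-0.64 ± 0.071) and Lef1 (-0.91 ± 0.081) were lower. The Nodal antagonist gene Lefty2 was at 275, 286 and 268 CPM in J1 and 157, 149 and 150 CPM in 3B3-3l (-0.86 ± 0.094), with Lefty1 (-0.23 ± 0.063) and Nodal (-0.22 ± 0.052) lower by less. These are the 3 lower members of the list of 18 Nodal and primitive streak genes. Another 7 were higher, among them the cardiac and endodermal factor gene Gata4 (0.61 ± 0.15), and the median was 0.11. The alternatives called 2 to 7 higher, with medians from -0.03 to 0.19, and 3 lower in each except the requirement of at least 2-fold, which left 0.

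Of extraembryonic and neural genes more were called higher than lower in 3B3-3l. Of 18 primitive endoderm genes 11 were higher and 1 lower, with a median of 0.72, and 6 were higher where 10 counts were required in every library. Sox17 was at 0.119, 0.169 and 0.108 CPM in J1 and 0.574, 0.502 and 0.489 CPM in 3B3-3l (1.95 ± 0.34). Gata6 (1.56 ± 0.31), Sox7 (1.67 ± 0.28), Hnf4a (1.08 ± 0.10) and the endocytic receptor genes Cubn (1.07 ± 0.22) and Lrp2 (0.88 ± 0.079) were higher as well. Lrp2 was the only one of these above 10 CPM, at 74.2, 66.0 and 72.7 CPM in J1 and 116, 127 and 147 CPM in 3B3-3l. In these pooled cells more RNA per cell and more cells of a type cannot be told apart. The list had a median of 0.00 in 2i. Of 16 trophoblast genes 8 were higher and 2 lower, with a median of 0.31, against 1 higher and 6 lower in 2i. The higher ones include them the keratin genes Krt18 (38.4, 37.6 and 43.1 CPM against 96.3, 86.1 and 77.6 CPM, 1.13 ± 0.093) and Krt8 (0.84 ± 0.084) and Ascl2 (1.04 ± 0.13). Of 9 neural progenitor genes 5 were higher and 1 lower, with Nes (0.80 ± 0.064) and Vim (0.75 ± 0.062) higher, while the tubulin gene Tubb3, on distal chromosome 8, was lower (-0.76 ± 0.072).

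Genes of cell adhesion and of the cytoskeleton were mostly higher. Of 24 integrin and laminin genes 16 were higher and 3 lower, with a median of 0.34. Laminin alpha 5, Lama5, was at 276, 235 and 281 CPM in J1 and 437, 429 and 436 CPM in 3B3-3l (0.72 ± 0.068), and the integrin genes Itga3 (0.60 ± 0.051) and Itga6 (0.37 ± 0.057) were higher. Itga3 lies in the middle of chromosome 11. The shared beta subunit gene Itgb1, on chromosome 8, was lower (-0.41 ± 0.054). Of 20 genes of the contractile and SRF list 12 were higher and 3 lower: Flna, which encodes an actin crosslinker, was at 674, 599 and 666 CPM against 1048, 1044 and 1053 CPM (0.70 ± 0.054), and the calponin gene Cnn1 rose by 0.72 ± 0.14, whereas the myosin gene Myh9 was lower (-0.45 ± 0.054). All 12 called genes of the 16 YAP and TEAD targets were higher, with a median of 0.33. They include Amotl2 (0.68 ± 0.081), the kinase gene Lats2 (0.68 ± 0.10) and Cyr61 (0.39 ± 0.071). The gene of the coactivator itself, Yap1, differed by 0.09 ± 0.040 (edgeR adjusted p = 0.0834). In the epithelial and mesenchymal list 9 of 20 were higher and 3 lower, with Zeb1 (0.73 ± 0.086) and Cd44 (0.80 ± 0.18) higher and E-cadherin, Cdh1, on distal chromosome 8, lower, at 728, 691 and 763 CPM against 551, 582 and 560 CPM.

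Markers of fibroblasts bear on the feeder layer of the J1 cultures. No tested marker was called higher in J1. Tnc (117 counts in J1 against 92 in 3B3-3l) and Timp1 (2518 against 2327) leaned to J1 without a call. Whether a small share of feeder RNA was present was not tested. Of 25 tested fibroblast and feeder genes 13 were higher in 3B3-3l and 0 lower by edgeR, with a median of 0.38 (0 were lower at an unadjusted p under 0.05 and 0 by DESeq2). Summed over all 32 listed genes the level was 1507, 1318 and 1608 CPM in J1 and 1687, 1770 and 1757 CPM in 3B3-3l. Most of that sum was Fn1, at 1218, 1039 and 1313 CPM against 1275, 1383 and 1369 CPM, which was not called (0.17 ± 0.084) except without J1 replicate 3 (0.25). The collagen genes Col5a1 (0.80 ± 0.075), Col5a2 (1.06 ± 0.12) and Col1a2 (0.59 ± 0.099) were higher in 3B3-3l, as were Mmp2 (0.46 ± 0.069), Fstl1 (0.67 ± 0.063) and Bgn (1.48 ± 0.22), while Col3a1 was near 0.65 CPM in J1 and 0.59 CPM in 3B3-3l. The untested markers were at low counts. Mmp3 had 0 counts in all 6 libraries, where 3 counts would be 0.0716 to 0.0813 CPM. Lum had 0 counts in J1 and 1 in 3B3-3l. Postn, Dcn and Prrx1 had 11 to 20 counts over the 3 libraries of a line. S100a4 had 22 counts in J1 and 14 in 3B3-3l, and Fap had 3 and 5. Of the macrophage and blood genes 4 passed the filter and 0 were called by edgeR (1 at an unadjusted p under 0.05, 0 by DESeq2), with a summed level of 15.0 to 16.6 CPM in J1 and 12.9 to 15.8 CPM in 3B3-3l. The 15 mitochondrially encoded genes, read as a sign of RNA quality, summed to 11850 to 15360 CPM in J1 and 12340 to 15370 CPM in 3B3-3l. By edgeR 0 were called, 2 higher and 1 lower had an unadjusted p under 0.05, and DESeq2 called 1 lower.

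Imprinted genes moved in both directions, as a set of single loci. Of 41 tested, 19 were higher and 8 lower, with a median of 0.23. The higher ones include Meg3 and its neighbours of the chromosome 12 domain, Rtl1 (1.93 ± 0.15) and Dlk1 (5.21, 4.92 and 4.99 CPM against 13, 12.3 and 11.6 CPM, 1.29 ± 0.090). Meg3 is expressed from the maternal copy, and Rtl1 and Dlk1 from the paternal one. Dio3, of the same domain, was not called (0.08). The paternally expressed Peg3 was at 69.4, 66.6 and 75.2 CPM in J1 and 202, 212 and 232 CPM in 3B3-3l (1.61 ± 0.068), and Igf2 (1.19 ± 0.065), Sfmbt2 (0.98 ± 0.070), Sgce (0.89 ± 0.086) and Peg10 (0.87 ± 0.064) were higher. H19, the maternal partner of Igf2, was at 66.6, 66.0 and 68.3 CPM against 70.4, 70.8 and 66.1 CPM and was not called (0.05 ± 0.065). The lower ones include the maternally expressed Cdkn1c (-0.89 ± 0.098) and Phlda2 (-0.58 ± 0.070), and 3 genes of chromosome 11, Ddc, Commd1 (-0.66 ± 0.073) and Grb10 (-0.53 ± 0.062). In 2i 11 were higher and 21 lower. Peg3 and Igf2 did not differ there by the call (0.09 and 0.36), and the media difference was called for both.

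Germline genes known to be silenced through promoter methylation were more often higher than lower in 3B3-3l. Of 32 tested, 17 were higher and 4 lower, with a median of 0.74. Zfp42, among the 4 lower, is also a member of the naive pluripotency list. Summed over the list the level was alike, at 1228, 1271 and 1230 CPM in J1 and 1286, 1244 and 1224 CPM in 3B3-3l. Such a sum follows its most expressed members, and Taf7l and Mael, given next, were a small part of it. Taf7l, a testis homologue of a general transcription factor subunit, was at 1.17, 1.5 and 1.68 CPM in J1 and 5.30, 5.42 and 4.76 CPM in 3B3-3l (1.84 ± 0.20). Mael, which acts with piRNAs, was at 6.57, 9.02 and 8.89 CPM against 15.9, 17.5 and 19 CPM (1.1 ± 0.11). Genes of the meiotic chromosome axis were among them, with Sycp2 (1.24 ± 0.23), Stag3 (0.84 ± 0.057), Smc1b (0.90 ± 0.13) and Sycp3 (0.78 ± 0.18), as were Mov10l1 (0.97 ± 0.090), Piwil2 (0.82 ± 0.065), Dazl (0.70 ± 0.13) and the RNA helicase gene Ddx4 (0.66 ± 0.063). The lower ones were Tex19.1 (-0.60 ± 0.068) and Tex19.2 (-1.75 ± 0.22) on chromosome 11, Zfp42 on chromosome 8 (-0.19 ± 0.058, a call lost without J1 replicate 2 and without 3B3-3l replicate 2 or 3, at -0.18 to -0.16) and the tudor domain gene Tdrd1 (-0.66 ± 0.14). The list had 16 higher and 6 lower in 2i, with a median of 0.34. An X-linked list of Xlr, Rhox and cancer-testis genes went the other way, with 10 of 17 lower, 3 higher and a median of -1.40, of which Rhox13 is in both lists. Xlr3a was at 5.83, 4.8 and 5.96 CPM in J1 and 0.287, 0.549 and 0.567 CPM in 3B3-3l (-3.55 ± 0.18, edgeR adjusted p = 2.07e-09), and Xlr3b at 8.22, 7.50 and 7.80 CPM against 1.57, 1.43 and 1.91 CPM (-2.26 ± 0.12). Xlr genes are near-identical copies, and the split of reads among them is uncertain. Higher members were Nxf2 (2.17 ± 0.25) and Magea4 (1.82 ± 0.27), both under 2 CPM. Where 10 counts were required in every library, 4 of this list were lower and its median was -0.32.

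The promoters of 3 of these higher and 2 of these lower genes are printed as examples of CG content, the substrate of the methyltransferases. They do not stand for their lists. Each is the 250 bases before the RefSeq start on the gene's strand (GRCm38.p6), 5′ to 3′, with CG dinucleotides in capitals. Taf7l is at chrX:134476491-134476740 (minus strand), Mael at chr1:166238745-166238994 (minus), Dazl at chr17:50293621-50293870 (minus), Xlr3a at chrX:73097096-73097345 (minus) and Xlr3b at chrX:73191929-73192178 (plus).
Taf7l: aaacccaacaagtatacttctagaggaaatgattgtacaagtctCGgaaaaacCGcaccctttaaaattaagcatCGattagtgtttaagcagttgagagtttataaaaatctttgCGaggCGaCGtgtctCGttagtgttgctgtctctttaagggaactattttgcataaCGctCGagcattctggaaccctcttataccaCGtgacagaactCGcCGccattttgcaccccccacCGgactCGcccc
Mael: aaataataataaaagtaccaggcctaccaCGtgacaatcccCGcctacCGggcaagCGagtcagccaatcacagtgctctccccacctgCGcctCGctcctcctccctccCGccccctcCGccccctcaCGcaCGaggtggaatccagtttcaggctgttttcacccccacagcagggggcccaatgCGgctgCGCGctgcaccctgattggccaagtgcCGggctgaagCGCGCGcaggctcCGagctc
Dazl: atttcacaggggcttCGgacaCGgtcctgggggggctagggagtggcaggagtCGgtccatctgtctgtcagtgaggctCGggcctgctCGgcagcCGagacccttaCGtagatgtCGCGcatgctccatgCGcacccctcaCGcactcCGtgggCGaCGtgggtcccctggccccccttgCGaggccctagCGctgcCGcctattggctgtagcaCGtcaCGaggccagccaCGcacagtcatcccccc
Xlr3a: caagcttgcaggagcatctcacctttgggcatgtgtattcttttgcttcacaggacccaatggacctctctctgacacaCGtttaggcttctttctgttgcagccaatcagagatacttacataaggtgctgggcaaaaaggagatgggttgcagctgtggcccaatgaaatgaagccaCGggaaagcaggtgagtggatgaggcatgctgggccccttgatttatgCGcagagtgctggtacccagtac
Xlr3b: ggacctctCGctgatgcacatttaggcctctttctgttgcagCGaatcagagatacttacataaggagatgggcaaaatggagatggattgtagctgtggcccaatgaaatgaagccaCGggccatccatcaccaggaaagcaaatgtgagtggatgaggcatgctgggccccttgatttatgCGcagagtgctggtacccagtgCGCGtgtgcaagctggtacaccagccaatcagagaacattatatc
The Taf7l, Mael and Dazl windows hold 14, 18 and 20 CG dinucleotides, and those of Xlr3a and Xlr3b hold 3 and 6. The Xlr3a and Xlr3b windows share an unbroken run of 58 bases. CG was counted in the same way over RefSeq windows of 300 bases (250 before to 50 after the start) of the 9832 tested genes with 1 such window, 55.0% of those tested. A CG on one strand is a CG on the other, so strand does not matter. The median was 20, and 12.1% of windows held 5 or fewer. Genes called higher had a median of 22 and genes called lower 20. The genes at least 2-fold lower had a median of 7, and 39.6% of their 187 windows held 5 or fewer. The genes at least 2-fold higher had a median of 15, with 24.2% of 231 windows at 5 or fewer. Leaving out chromosomes 8 and 11 kept the median of the 2-fold lower genes at 7. Read the other way, genes with 0 to 5 CG were not called lower more often than the rest. Of them 16.2% were lower and 16.6% higher, against 19.4% and 23.7% of genes with 15 or more CG. Germline list genes had a median of 17 in 27 windows (from 2 to 38) and the X-linked list 7.5 in 12 (from 0 to 16), so the lists overlapped. These counts describe sequence, and methylation of these promoters was not analysed here.

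**Figure D5:**
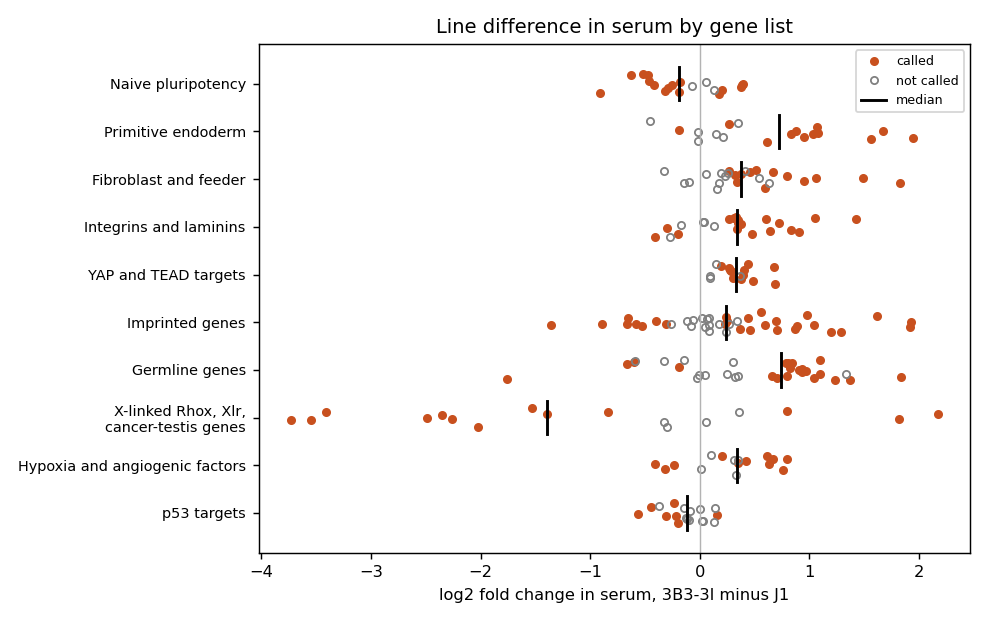
Line difference in serum (log2 fold change of 3B3-3l over J1) of each tested member of 10 gene lists, filled where called by edgeR, with a bar at the list's median. Primitive endoderm (0.72) and germline genes (0.74) lie to the right, the X-linked list (-1.40) reaches far to the left with 3 called members on the right (-0.32 where 10 counts were required in every library), and imprinted genes spread to both sides of 0.

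The hypoxia, glycolysis and p53 lists had other counts in 2i than in serum. Of 16 hypoxia genes 8 were higher and 3 lower in serum, with a median of 0.34. In 2i 1 was higher and 14 lower, with a median of -0.88. The media difference was called upwards for 14 of the 16, beside 18.3% of all genes tested. All 3 lower ones lay on chromosomes 8 and 11. The glucose transporter gene Slc2a1 was at 647, 557 and 703 CPM in J1 and 966, 1011 and 977 CPM in 3B3-3l (0.63 ± 0.087), and Vegfa (0.67 ± 0.065), Ddit4 (0.79 ± 0.099) and Ndrg1 (0.76 ± 0.12) were higher. J1 replicate 2 was the lowest J1 library for each of these 4 genes. Of 24 glycolysis genes 6 were higher in serum, beside 21.5% of all genes, and 0 lower by edgeR (0 lower at an unadjusted p under 0.05, 0 by DESeq2). In 2i 3 were higher and 14 lower. Their media difference was called upwards for 18 and downwards for 1, beside 18.3% and 16.3% of all genes tested. Pgk1 was higher by 0.32 ± 0.070 in serum. Of 18 p53 targets 6 were lower and 1 higher, with a median of -0.12, against 13 higher in 2i. They include Trp53 itself, at 531, 502 and 480 CPM against 358, 329 and 336 CPM (-0.56 ± 0.059), and Ccng1 (-0.45 ± 0.055), both on chromosome 11, with Mdm2 (-0.20 ± 0.042) and Bax (-0.31 ± 0.076) elsewhere. Cdkn1a, a main p53 target, differed by 0.02 ± 0.054. Asparagine synthetase, Asns, was at 299, 300 and 304 CPM in J1 and 708, 767 and 776 CPM in 3B3-3l (1.32 ± 0.053), in a list of 22 amino acid and one-carbon genes with 8 higher and 7 lower. The threonine dehydrogenase gene Tdh was among the lower ones (-0.42 ± 0.056).

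For several lists the lower calls were mostly those of chromosomes 8 and 11. Of 5 lower Wnt response genes of 18, 4 lie on chromosome 11: Notum, Axin2 (12.5, 12.4 and 12.6 CPM against 7.23, 7.33 and 6.98 CPM, -0.80 ± 0.056), the ligase gene Znrf3 (-0.63 ± 0.057) and Tcf7 (-0.35 ± 0.044). The related ligase gene Rnf43 was higher (0.81 ± 0.14). It lies on the same chromosome, whose middle stretch had 31.9% of genes higher and 16.7% lower. Of 5 lower Polycomb subunit genes of 29, 4 lie on that chromosome too, among them Cbx2 (-0.44 ± 0.058), Ezh1 (-0.39 ± 0.057) and E130012A19Rik, the table's name for Epop (-0.53 ± 0.084). Suz12, of the same chromosome, was higher (0.33 ± 0.079), with Kdm2b (0.51 ± 0.048) among 7 higher. MEK/ERK response genes had 4 of 20 higher and 5 lower, beside 21.5% and 17.2% of all genes tested. The feedback phosphatase genes Dusp4 (41.6, 45.1 and 45.6 CPM against 84.8, 72.5 and 68.7 CPM, 0.77 ± 0.077) and Dusp5 (0.66 ± 0.069) were higher, Myc was lower (-0.47 ± 0.10), and Egr1 was at 106, 89.4 and 102 CPM against 50.1, 47.9 and 49.7 CPM (-1.01 ± 0.20), a call that was lost with DESeq2 (adjusted p = 0.0818). Of the interferon and antigen presentation genes 6 of 19 were higher and 1 lower, with Bst2 (0.81 ± 0.066) and the class I light chain gene B2m (0.79 ± 0.059). The remaining lists had few or balanced calls: 3 higher and 6 lower of 18 LIF and STAT3 genes, 3 and 2 of 14 BMP and Id genes, 4 and 7 of 23 sterol synthesis genes, and 3 and 1 of 17 Hox genes. Of 8 genes of the two-cell-like state 0 were called by edgeR in serum, 1 had an unadjusted p under 0.05, and DESeq2 called 0.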

How the data were processed

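Poly(A) RNA of 12 cultures was sequenced with a stranded kit in pools of libraries, and which library went into which pool is not given in the sources used here. The authors quantified reads with Sailfish and summed them to genes with tximport. The authors also deposited TPM values and effective lengths per transcript, from which a TPM-weighted length per gene was made as an offset for an alternative. The deposited gene table holds estimated counts per Ensembl gene, which were rounded to whole numbers here. The processing notes name mm10. Genes were tested with edgeR 4.0.16 (R 4.3.3; quasi-likelihood, TMM scaling, edgeR's expression filter) in one fit of 4 groups, with Benjamini-Hochberg adjustment over 17885 genes. Named genes were the methyltransferase genes, the 15 highest and 15 lowest by the rule given above, members of the 32 lists, and genes of the chromosome runs, and 1 gene in each direction is not reported here. Members, lists and tests were chosen with earlier results of these data known. Of the tested genes 90.3% had a RefSeq position (GRCm38.p6). Library deviations by chromosome used log2(CPM + 0.5). The fit was checked on simulated counts, with the same spread for every gene and few genes changed, evenly up and down. That check does not cover spread that differs between genes or the effect of scaling on the split of calls. DESeq2 1.42.0 and other filters, scalings, offsets and left-out libraries were alternatives. Replicates were labelled biological, and their separate origin is not described further, so p-values measure the spread between these libraries. Counting limits cover counting error only.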

Additional observations from a re-analysis of the deposited data

Results flagged for a closer look

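The line difference was tested between the media for 32 genes named by rule, and for 20 of them it differed by the edgeR call. All but Dnmt3b, Dnmt3l, Dnmt1 and Uhrf1 were chosen by their serum difference, which enters the value tested, so that this count is a description. Values are the log2 line difference in serum minus that in 2i. It was positive for 14 genes: 5.45 for Gm364, 3.87 for Dll1, 2.57 for Gm14136, 2.49 for Gm17167, 2.48 for Gm5946, 2.39 for Gadd45g, 2.09 for Taf9b, 1.94 for Tcte2, 1.55 for Gm12139, 1.38 for Foxi3, 0.80 for Meg3, 0.77 for Dnmt3a, 0.59 for Krt17 and 0.44 for Prr19. It was negative for 6 genes: -3.29 for Dnmt3b, -1.91 for SCARNA16, -1.69 for Dnmt3l, -1.45 for Notum, -0.71 for Ntpcr and -0.48 for Bcl6b. The mean of Dnmt3b in J1 was 44.1 CPM in 2i and 413 CPM in serum, whereas 3B3-3l had 928 CPM in 2i and 891 CPM in serum. Dll1 and Gadd45g were below 0.5 CPM in both lines in 2i, so their differences there rest on few counts.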

How the results depend on the processing

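Of 2844 values for 205 named genes under the alternatives, 2831 kept their direction and side of the threshold, 5 lost their call, 8 gained one and 0 changed direction. A gene that an alternative's filter removed gave no value there and was not counted as a lost call. The requirement of at least 2-fold is not part of this count. The 5 lost were Egr1 with DESeq2, Col1a1 with transcript length offsets (0.32) and Zfp42 without single libraries, and the 8 gained were of Sox2, Pou5f1 and Fn1. Requiring at least 2-fold left 820 genes in serum (485 higher, 335 lower), 1447 in 2i (583 and 864), 1470 for the media difference (940 and 530), and 36 higher and 17 lower list genes. Leaving out the genes of chromosomes 8 and 11 and the chromosome 7 run left 2038 lower genes. With scaling from the other genes, an alternative chosen like the last after seeing the data, 3298 were higher and 3567 lower, and the median was -0.156 for chromosome 8 and -0.332 for chromosome 11. Leaving out 1 library at a time gave 5534 to 6797 genes in serum (3067 to 3721 higher, 2397 to 3076 lower), 7116 to 7961 in 2i (3234 to 4013 and 3650 to 4013) and 5225 to 6857 for the media difference (2830 to 3473 and 2183 to 3384). The medians ranged from -0.306 to -0.284 for chromosome 11, from -0.156 (without 3B3-3l serum replicate 1) to -0.101 for chromosome 8, from -0.557 to -0.519 for its distal run and from -0.928 to -0.894 for the chromosome 7 run. Same-numbered libraries of the lines deviated together with r = 0.006, -0.136 and -0.040, so the numbers do not pair them, and a replicate block gave 6383 genes in serum. Estimated counts divide reads among near-identical genes. At this depth 3 counts are 0.0716 to 0.0813 CPM, and list genes under 1 CPM are the least certain.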

Other observations

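A few more genes of the lists had clear differences. In the amino acid list the cystathionine lyase gene Cth was at 52.5, 55.4 and 51.6 CPM in J1 and 84.5, 84.1 and 84.5 CPM in 3B3-3l (0.67 ± 0.080), and the lipoprotein receptor gene Vldlr was higher by 0.93 ± 0.15. The glutathione-degrading enzyme gene Chac1 was lower (-0.74 ± 0.19), as were Pycr1 of proline synthesis (-0.49 ± 0.068, chromosome 11) and the amino acid transporter gene Slc7a5 (-0.28 ± 0.062, chromosome 8). Sterol genes were split by single enzymes. Cyp51 was at 66.4, 71.3 and 69 CPM against 98.2, 98.7 and 101 CPM (0.53 ± 0.048), whereas Fdps (-0.26 ± 0.061) and Hsd17b7 (-0.30 ± 0.075) were lower.

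Receptor and ligand genes of the LIF and BMP pathways differed too. The LIF receptor gene Lifr was at 65.1, 62.3 and 67 CPM against 46.4, 50.6 and 55 CPM (-0.35 ± 0.077). Bmp4 was lower in serum (-0.55 ± 0.071) and higher in 2i (0.61), with a called media difference (edgeR adjusted p = 5.22e-07), and the BMP target Id2 was higher in serum (0.52 ± 0.079). Besides Slc2a1, the neuronal-type glucose transporter gene Slc2a3 was at 1230, 1095 and 1314 CPM against 1671, 1842 and 1809 CPM (0.55 ± 0.061) and Ldhb was higher (0.43 ± 0.071).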
